A study of Caenorhabditis elegans with 2 samples.

Results

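Chaperones and co-chaperones of the nematode Caenorhabditis elegans were examined as possible sites of the homeodomain protein CEH-45, which had been mapped by chromatin immunoprecipitation and sequencing (ChIP-seq). The genes were taken by symbol: every protein-coding gene whose symbol starts with dnj-, hsp-, cct- or pfd-. This gave 65 of 19973 nuclear protein-coding genes. The gene family and its classes were picked with earlier results of these data known. Shares set beside those of all genes are therefore descriptions and not tests. The material was whole late embryos of strain RW12292, labelled with an age of 2 hours and obtained by bleaching. In this strain the ceh-45 gene carries a CRISPR insertion, st12292, that adds TY1, EGFP and 3xFLAG tags, and the precipitation was made with an antibody against GFP, although the label's antibody field names ceh-45. The series holds 1 group of 2 biological replicates of this strain and no second strain, stage or treatment, so no result below compares conditions. The tagged protein stands for CEH-45 itself, and a whole-embryo library averages over all cells.

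Chaperones help proteins fold, refold and assemble. Hsp70 proteins bind exposed stretches of a client protein and release them with the use of ATP, and J-domain proteins, encoded by the dnj- genes, choose the clients and drive that cycle. The cytosolic chaperonin CCT is a ring of related subunits that folds actin and tubulin, and prefoldin hands it such clients. Small heat shock proteins hold unfolding proteins, and several of them, the hsp-16 family above all, are switched on by heat through the transcription factor HSF-1. Mitochondria and the endoplasmic reticulum have chaperone sets of their own.

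Candidate peaks came from the larger ranked list, and a gene was given every candidate with a summit between 2000 bp before and 500 bp after one of its transcript starts. Peak signals are printed as the authors deposited them, with no read counts behind them, so the depth of the libraries is unknown. The irreproducible discovery rate (IDR) estimates how many of the peaks ranked at least as high would fail to repeat, and every peak in the authors' thresholded sets had an IDR of at most 0.01. Both versions of the list for the series, the larger and the conservative, and each replicate's own list have such a set. Of the 65 genes, 5 had a peak of the larger thresholded set: dnj-28, hsp-60, dnj-29, dnj-19 and dnj-14. That is 7.69% of the chaperone genes, against 2.15% of all protein-coding genes. A sixth, hsp-6, had a peak of the conservative set only.

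The sequences at the thresholded summits of hsp-60, hsp-6, dnj-19 and dnj-14 are given here because these peaks carry the counts that follow. Each is the summit with 50 bp of build ce11 on either side, plus strand, 5′ to 3′, read from the RefSeq copy of the assembly. The positions are chrIII:1619081-1619181 for hsp-60, chrV:4827172-4827272 for hsp-6, chrV:5505202-5505302 for dnj-19 and chrX:4711947-4712047 for dnj-14. Capitals mark the word CGCAA on either strand.
hsp-60: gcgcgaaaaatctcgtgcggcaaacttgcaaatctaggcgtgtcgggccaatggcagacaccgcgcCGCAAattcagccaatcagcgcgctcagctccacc
hsp-6: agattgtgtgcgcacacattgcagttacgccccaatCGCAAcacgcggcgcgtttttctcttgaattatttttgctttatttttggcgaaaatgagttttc
dnj-19: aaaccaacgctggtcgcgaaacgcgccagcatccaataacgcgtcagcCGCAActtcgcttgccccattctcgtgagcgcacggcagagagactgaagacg
dnj-14: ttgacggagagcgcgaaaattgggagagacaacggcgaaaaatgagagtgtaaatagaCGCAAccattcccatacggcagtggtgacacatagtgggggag

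The word CGCAA was picked after these sequences had been read, so its presence in them is a description. Each of the 4 windows held it once, with its centre 18 bp from the summit on the higher-coordinate side at hsp-60, 10 bp on that side at dnj-14, on the summit itself at dnj-19 and 12 bp on the lower-coordinate side at hsp-6. The windows at the highest peaks of dnj-28 and dnj-29 held it 2 times each. Of the 6 thresholded windows of the larger set, which do not include hsp-6, 5 held the word. A second, overlapping peak at dnj-29 lacked it. Among the 60 distinct highest candidates of chaperone genes, 13 held it (21.7%). Over the genome it stood in 34.2% of the 310 thresholded peaks assigned to a coding gene, against 12.5% of the 50662 other candidates so assigned. The GC content of these windows moved with it, at 50.2% in the thresholded peaks and 38.1% in the other candidates, and its part in the difference was not tested. The word CCAAT, also picked by eye, stood in 16.1% of the same thresholded peaks and 20.7% of the other candidates.

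Among the J-domain genes, 4 of 29 (13.8%) had a thresholded peak, and the differences between classes given here were not tested. The highest signal of any chaperone gene lay at dnj-28 (WBGene00001046), where the peak on chromosome I, 2996215 to 2996518, had a signal of 146 and an IDR of 0.000500. Its signal was at or above the highest candidate of 99.7% of all protein-coding genes. Its summit was intergenic, 121 bp upstream of the dnj-28 start and 453 bp upstream of supr-1, which runs the other way. The replicates' own lists gave 66.8 in replicate 1 and 82.8 in replicate 2, and both values belonged to thresholded peaks. This was the only chaperone gene with a peak in both replicates' own sets.

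The peak at dnj-29 (WBGene00001047, the homologue of the endoplasmic reticulum protein Sec63) had a signal of 93.1 and covered chromosome I, 14113081 to 14113384. Its summit lay 125 bp upstream of dnj-29 and 403 bp upstream of ndua-2, a subunit gene of respiratory complex I. A second thresholded peak overlapped it, with a signal of 23.8, and both carry the same pair of underlying signals, so they count as 1 site. Replicate 1 gave 66.7 with an IDR of 0.000590, whereas replicate 2 gave 29.6 with an IDR of 0.911. The site passed the threshold of replicate 1 and not that of replicate 2.

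dnj-19 (WBGene00001037), one of the J-domain genes, had a peak of signal 70.1 on chromosome V, 5505100 to 5505403. The summit lay 395 bp upstream of dnj-19 but only 1 bp upstream of the start of nhr-47, a nuclear hormone receptor gene on the opposite strand. Replicate 1 gave 44.9, past its own threshold, and replicate 2 gave 29.8 with an IDR of 0.873. dnj-14 (WBGene00001032) is the homologue of the cysteine string protein of synaptic vesicles. Its peak, on chromosome X at 4711845 to 4712148, had a signal of 59.5 and an IDR of 0.00673. The summit stood 249 bp upstream of dnj-14 and 282 bp upstream of glit-1, a neuroligin-like gene. In the conservative list its lowest IDR was 0.0174, and the replicates gave 28.1 in replicate 1 and 36.0 in replicate 2, neither past its own threshold.

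The other 25 J-domain genes had no thresholded peak in any of the 4 sets. The nearest to the threshold was dnj-20, a J-domain gene of the endoplasmic reticulum, with a signal of 61.6 and an IDR of 0.0128 at a summit inside its own intron. That candidate belonged to an inner start: dnj-20 had 20.5 with the outermost start only, and 38.1 when the window began 1000 bp or 500 bp upstream. Next came dnj-7 with 56.1 (IDR 0.0241), dnj-23 with 51.3 (0.0262) and dnj-5 with 52.6 (0.0443). At the low end, dnj-21, which encodes the mitochondrial import protein TIM14, had 23.4, and dnj-10 and dnj-26 had no candidate summit in their windows. Counting a peak by 1 bp of overlap gave dnj-10 29.4 and dnj-26 10.5. The median highest signal of the 29 genes was 39.2, counting a gene with no candidate as 0, against 28.6 over all protein-coding genes. Of the 29, 17 stood in the top 25% of all protein-coding genes by this signal, which is 58.6% of the class.

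Outside the J-domain genes, the larger thresholded set had a peak at 1 chaperone gene, the mitochondrial hsp-60. hsp-60 (WBGene00002025) encodes the mitochondrial chaperonin, and its peak on chromosome III, 1618979 to 1619282, had a signal of 96.3 and an IDR of 0.00244. The summit lay 611 bp upstream of hsp-60 and 202 bp upstream of Y22D7AL.10, which RefSeq names as the mitochondrial Hsp10. Hsp10 is the co-chaperonin that caps the chaperonin ring, so the genes of the ring and of its cap lay on opposite sides of 1 peak. Replicate 1 gave 57.1 with an IDR of 0.189 and replicate 2 gave 30.3 with an IDR of 0.184, so neither passed on its own.

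At hsp-6 (WBGene00002010), the mitochondrial Hsp70, the peak on chromosome V, 4827070 to 4827373, had a signal of 70.8. Its IDR was 0.0235 in the larger list and 0.00688 in the conservative one, on opposite sides of the threshold. The summit lay 462 bp upstream of hsp-6 and 138 bp upstream of C37H5.5, a nucleolar complex protein homologue. Replicate 1 gave 39.6 and replicate 2 gave 30.4. In the rest of the class dnj-15 had 32.3, dnj-21 had 23.4, hsp-75 had 16.3 and dnj-10 had no candidate. The class median was 27.8, against 28.6 over all protein-coding genes. The class thus held both the second highest signal of all chaperone genes and one of the 3 genes without a candidate.

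**Figure D1:**
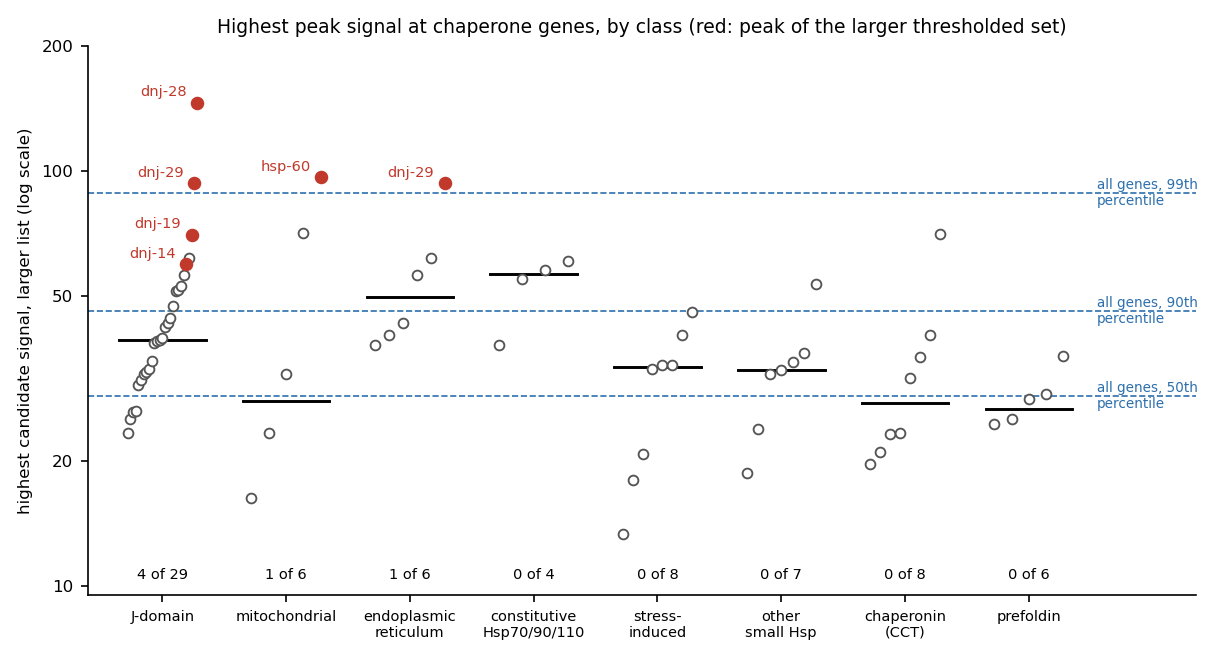
Highest candidate signal of each chaperone gene in the larger ranked list (log axis) by class, with a bar at the class median, a gene with no candidate counting as 0. Red points have a peak of the larger thresholded set, their number of the class is printed below, genes of 2 classes appear in both, and dashed lines give percentiles of the same value over all protein-coding genes; the red points are 4 J-domain genes, one of them also of the endoplasmic reticulum, and hsp-60.

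**Figure D2:**
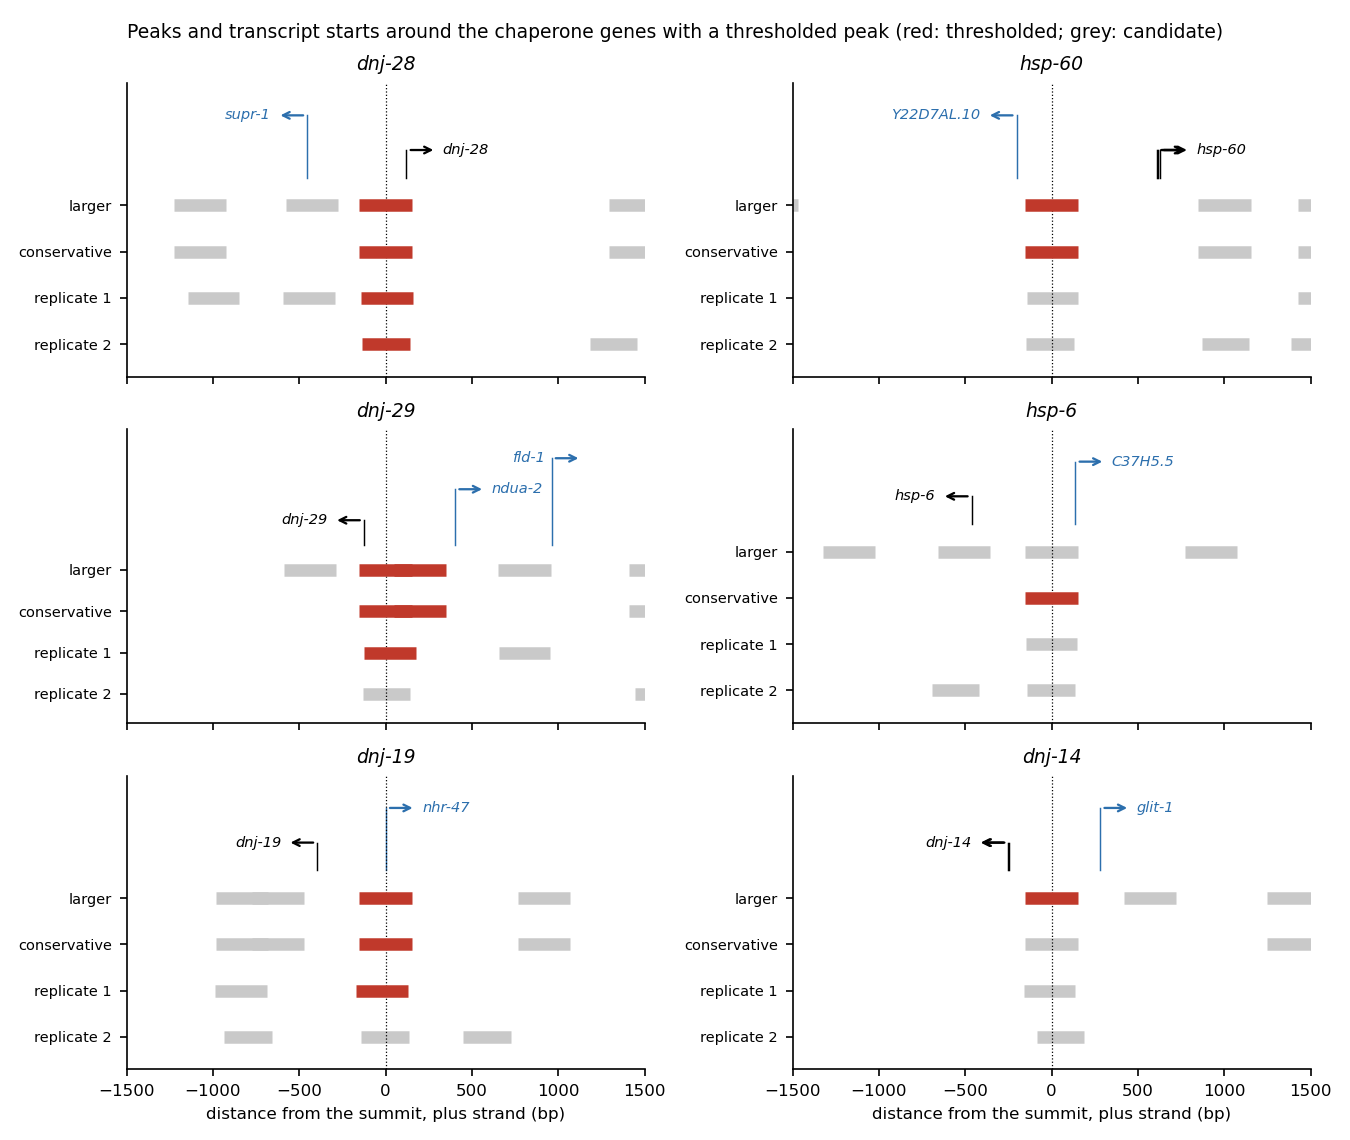
Candidate peaks (grey) and thresholded peaks (red) of the 4 lists within 1500 bp of the summit at the 6 genes with a thresholded peak in any set, with transcript starts as arrows (black, the chaperone gene; blue, its neighbours). At all 6 the summit lies between 2 starts that point away from each other, and only dnj-28 is red in every list.

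The 6 genes set aside as endoplasmic reticulum chaperones all stood in the top 25% of protein-coding genes, dnj-20 only through its inner start. After dnj-29 came dnj-20 and dnj-7, then dnj-27 with 42.9, hsp-4 with 40.2 and hsp-3 with 37.9. hsp-3 and hsp-4 encode the BiP forms of Hsp70 in this compartment. The class median was 49.5, but these genes had a median of 2 annotated starts and 3986 bp of searched sequence, against 1 start and 2501 bp over all protein-coding genes. Their median of 6 candidates a gene was likewise above the 3 over all genes, and the part of the longer search in the signal was not tested.

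The constitutive Hsp70, Hsp90 and Hsp110 genes had high candidates that did not pass. The class had a median of 3122 bp of searched sequence, against 2501 bp over all protein-coding genes. The longer windows were those of hsp-90 (3743 bp) and hsp-3 (4154 bp), while hsp-1 and hsp-110 had 2501 bp each. The class median of 5.5 candidates a gene stood against 3 over all genes. The part of the longer search at hsp-90 and hsp-3 in their signal was not tested. The Hsp70 gene hsp-1, abundant in all cells, had 60.4, which is above the 59.5 of dnj-14, yet its IDR was 0.107. hsp-90 had 57.7 (IDR 0.287) at a summit inside its own intron, but 29.8 with the outermost start only. hsp-110, a nucleotide exchange factor for Hsp70, had 54.8 (IDR 0.0659) in its own exon. At hsp-1 replicate 1 gave 21.6 and replicate 2 gave 34.1. At hsp-90 the order was the other way, 37.3 in replicate 1 and 20.5 in replicate 2. None of the 4 genes in this class, hsp-3 being the fourth, had a thresholded peak in any set. This is near the background, since the larger set reached 2.15% of all protein-coding genes.

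The class of heat- and stress-induced genes was set here as the hsp-16 family, hsp-70 and hsp-4. It leaves out hsp-60 (96.3) and hsp-6 (70.8), which were counted as mitochondrial only, and its values depend on that split. The 8 genes of the class had signals from 13.3 to 45.7, none in the top 10% of all genes. None had a thresholded peak, which with 2.15% of all protein-coding genes reached is near the background, and their lowest IDR was 0.105. One copy of hsp-16.48 (WBGene00002020) had 45.7, hsp-4 had 40.2, both copies of hsp-16.1 shared 1 candidate of 34.1, hsp-16.2 had 33.3 and hsp-16.41 had 20.8. hsp-70, the heat-inducible Hsp70 gene, had 18.002, and the other copy of hsp-16.48 (WBGene00002019) had 13.3, the lowest value of any chaperone gene with a candidate. The highest candidates of this class lay a median of 1148 bp from the start, against 637 bp over all protein-coding genes. The class median of 33.7 was above the 28.6 over all genes, with the shared hsp-16.1 candidate counted for both copies. That median depends on the far part of the window. The highest candidate of every hsp-16 gene lay 1072 to 1477 bp upstream, and at all but WBGene00002020 it was the gene's only candidate. No hsp-16 gene therefore kept a candidate in the window starting 1000 bp upstream. The highest value, 45.7 at WBGene00002020, lay 1318 bp upstream. It fell to 0 with the window starting 1000 bp upstream, and also without peaks near small RNA genes.

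Among the other small heat shock genes hsp-12.1 was highest, with 53.2 and an IDR of 0.0331. Its replicates gave 29.1 in replicate 1 and 23.8 in replicate 2. The remaining 6 ran from 18.7 at hsp-12.3 to 36.3 at hsp-43. None of the 7 had a thresholded peak, which is near the background of 2.15% of all protein-coding genes in the larger set.

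The chaperonin and prefoldin genes had class medians close to that of the mitochondrial genes. The 8 cct- genes, which encode the subunits of one cytosolic ring, had a median of 27.5 and no thresholded peak. cct-8 stood apart from the others with 70.3, an IDR of 0.0120 just past the limit of 0.01, and a summit 421 bp upstream of cct-8 and 200 bp upstream of Y55F3AR.2, a thioredoxin domain gene that runs the other way. Its replicates gave 46.8 in replicate 1 and 25.98 in replicate 2. The other 7 ran from 19.7 at cct-3 to 40.1 at cct-6. The 6 prefoldin genes had a median of 26.7, led by pfd-3 with 35.8 and pfd-1 with 28.9, and pfd-5 had no candidate. They had no thresholded peak either. For both classes this is near the background of 2.15% of all protein-coding genes in the larger set.

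Over all 65 genes, 62 (95.4%) had at least 1 candidate, against 90.1% of all protein-coding genes. Their 242 candidates fell into 189 sites once overlapping peaks were joined, and the 6 thresholded peaks among them fell into 5. The median highest signal was 34.6, against 28.6 over all genes, and 17 of the 65 (26.2%) stood in the top 10% of all genes. At a looser limit of 0.05, chosen after the data were seen, 12 of 65 (18.5%) had a candidate, against 4.95% of all genes. They were the 6 genes with a thresholded peak in any set, cct-8, hsp-12.1, dnj-20, dnj-7, dnj-23 and dnj-5.

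**Figure D3:**
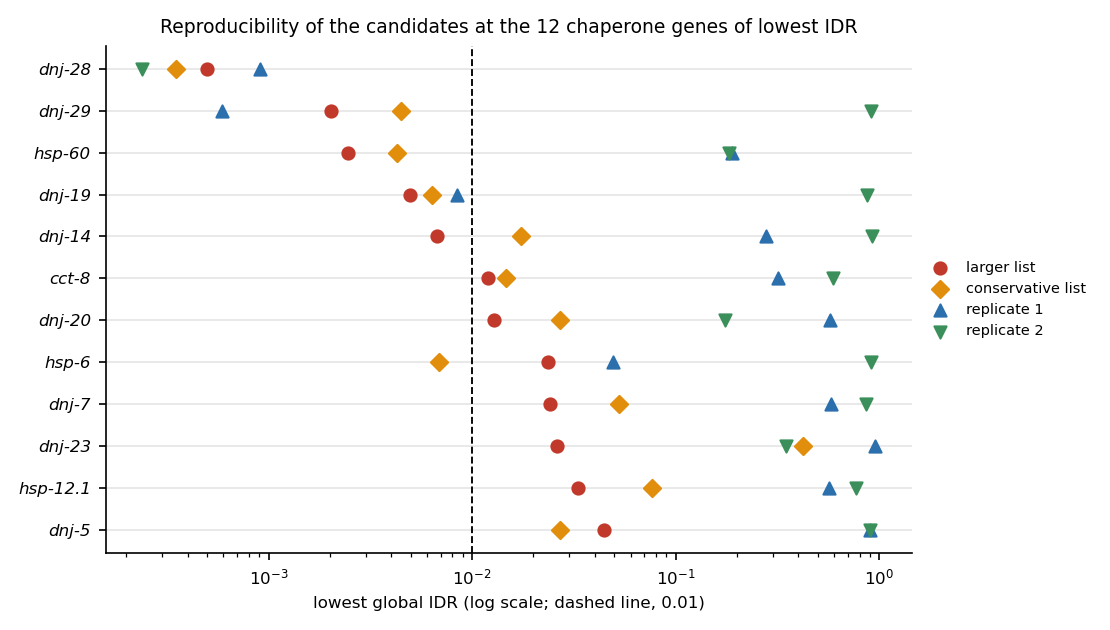
Global IDR (log axis) at the 12 chaperone genes with a value of at most 0.05 in the larger list: the lowest in the gene's window for the larger and conservative lists, and the lowest among candidates that overlap the gene's highest peak for each replicate's own list. The dashed line is 0.01; dnj-28 is left of it in all 4 lists, and every replicate 2 point other than that of dnj-28 lies right of 0.1.

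The other sets held as many of these genes or fewer. The conservative set had peaks at 5 of 65, against 1.83% of all protein-coding genes: dnj-28, hsp-60, dnj-29, dnj-19 and hsp-6. The replicate 1 set had 3, namely dnj-28, dnj-29 and dnj-19, against 1.12% of all genes. The replicate 2 set had dnj-28 alone, against 0.886% of all genes. Of the 62 highest candidates, 32 (51.6%) overlapped a candidate in both replicates' own lists and 7 (11.3%) in neither. Of the highest candidates of all genes, 35.7% did so in both and 18.2% in neither. The conservative list gives the pair of replicate signals at 56 of these peaks. There the median size of the difference between replicates was 0.59 on the log2 scale. At the thresholded peaks of the larger set it was 0.37, but those had passed an IDR limit, which selects for agreement between replicates. Most of the 56 had not passed it, so the 2 values are not a like comparison. The value at the highest candidates of all genes was not computed.

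A head-to-head arrangement recurred at these sites. At 25 of the 62 highest candidates (40.3%) the summit lay within 2000 bp upstream of a start on each strand, so that 2 genes pointed away from it, against 22.8% over all protein-coding genes with a candidate. This held at all 5 genes with a thresholded peak in the larger set and at 20 of the other 57 (35.1%). Over the genome it held for the highest candidate of 47.6% of the 429 genes with such a peak. A peak of this kind is counted for both genes, and the nearest coding start belonged to the chaperone gene itself at 35 of 62 (56.5%), against 70.5% over all genes. At hsp-60, dnj-19, hsp-6 and cct-8 the nearer start was the neighbour's. With each peak counted for the nearest start alone, 3 chaperone genes kept a thresholded peak, dnj-28, dnj-29 and dnj-14, against 1.4% of all protein-coding genes.

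**Figure D4:**
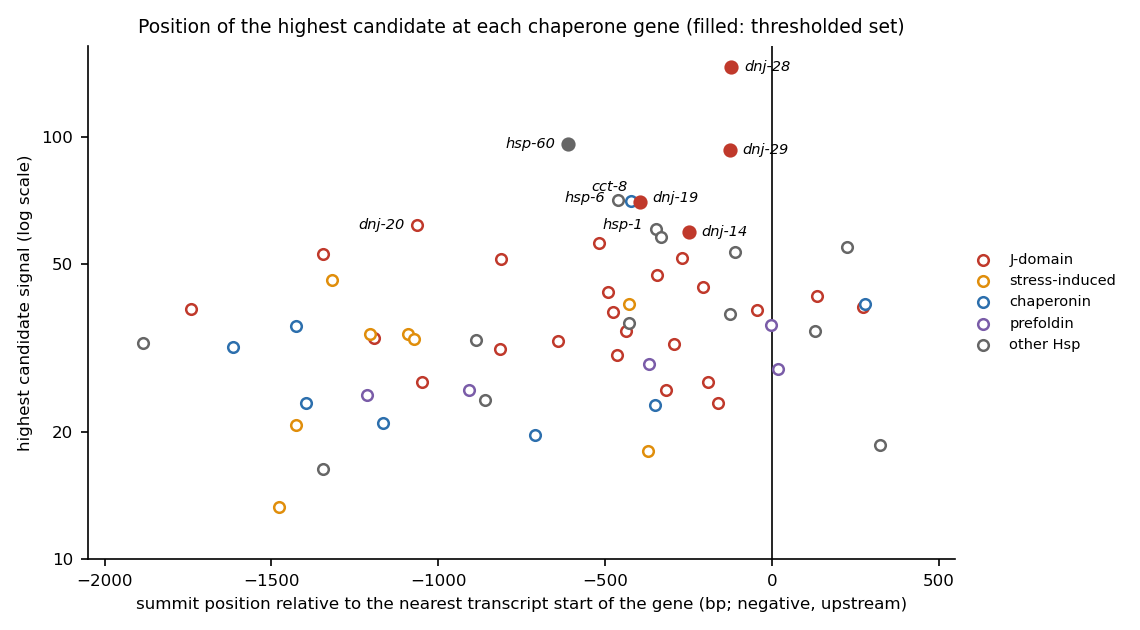
Position of the summit relative to the nearest start of the gene (bp, negative upstream) and signal (log axis) of the highest candidate at 62 chaperone genes, coloured by class, filled where a peak of the larger thresholded set was present; an hsp- gene of neither the stress-induced nor another coloured class is grey. The filled points all lie upstream, between 121 and 611 bp from the start.

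The highest candidates lay closer to the starts than those of all genes, a difference that was not tested. Their median distance was 450 bp, against 637 bp over all genes, and 29 of 62 (46.8%) fell from 500 bp upstream to 100 bp downstream, against 28.9%. By position, 34 of them were intergenic (54.8%, against 44.5% over all genes), 16 lay in exons (25.8%, against 34.8%) and 12 in introns (19.4%, against 20.7%). Genes of tRNA, snRNA, snoRNA or rRNA stood within 250 bp of 2 of the 62 (3.23%, against 1.73% over all genes). These were at both copies of hsp-16.48, and none of the thresholded ones had such a neighbour.

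Heat shock elements were sought because many chaperone genes are known HSF-1 targets. The letters GAANNTTC or TTCNNGAA, each of which reads the same on both strands and which can overlap, were searched from 250 bp upstream to 50 bp downstream of the outermost start. They stood in 32 of the 65 promoters (49.2%), against 32.5% of all 19973. All 8 stress-induced genes held them, as did 7 of the 8 cct- genes, 3 of the 4 constitutive genes and 4 of the 6 prefoldin genes. So did 9 of the 29 J-domain genes (31.0%), 1 of the 6 mitochondrial genes, 1 of the 6 endoplasmic reticulum genes and 1 of the 7 other small heat shock genes.

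The promoter shared by hsp-16.2 and hsp-16.41 shows what such a site looks like where no thresholded peak was found. Each line is a stretch of build ce11 read 5′ to 3′ on the strand of its gene, with the elements in capitals. The positions are chrV:1805107-1805207 for hsp-16.2, on the minus strand, and chrV:1804971-1805071 for hsp-16.41, on the plus strand.
hsp-16.2: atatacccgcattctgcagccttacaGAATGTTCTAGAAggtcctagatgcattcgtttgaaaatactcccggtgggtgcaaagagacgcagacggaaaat
hsp-16.41: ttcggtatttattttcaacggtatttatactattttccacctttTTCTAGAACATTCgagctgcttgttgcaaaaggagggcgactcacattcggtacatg

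**Figure D5:**
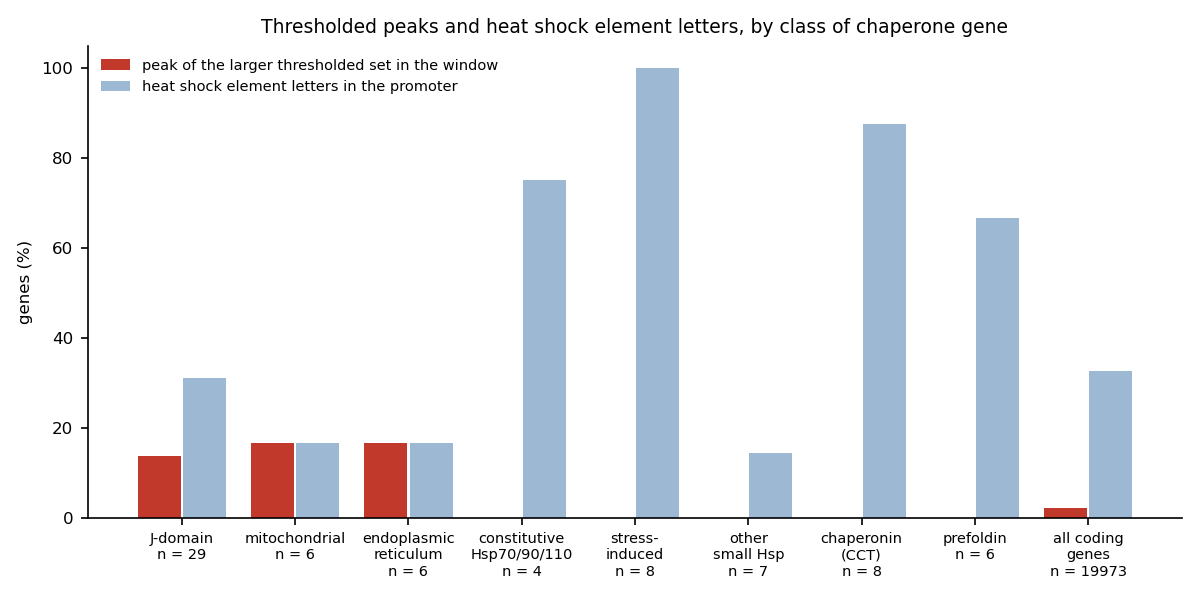
Share of genes with a peak of the larger thresholded set in the window (red) and share with heat shock element letters in the promoter (blue), by class of chaperone gene and over all protein-coding genes. The classes with the highest blue bars, stress-induced and chaperonin, have 8 genes each and no red bar, which is near the background of 2.15% of all protein-coding genes. J-domain, mitochondrial and endoplasmic reticulum genes have both bars, but no single chaperone gene had both the letters and a peak.

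The letters were then set beside the thresholded peaks. None of the 32 chaperone genes whose promoter held the letters had a peak of the larger set. This is near the background, since 2.12% of all 6495 protein-coding genes with the letters had one. Of the 33 chaperone genes without them, 5 did (15.2%), against 2.16% of all 13478 without them. Over all protein-coding genes the 2 shares were thus close. The difference within the chaperone genes was not tested. At the summits the letters were in none of the 6 thresholded windows, again 50 bp to either side, and in 12 of the 60 distinct highest candidates. Over the genome they were in 4.93% of all thresholded peaks and 12.7% of all candidates. GC content also differed between these sets of windows, but not always in step with the shares. It averaged 51.2% in the 6 thresholded windows, which lie at 5 sites, and 41.5% ± 8.95 in the highest candidates of the chaperone genes (SD, n = 60). It averaged 49.8% ± 8.18 in all thresholded peaks (SD, n = 548) and 38.2% ± 8.82 in all candidates (SD, n = 108916), and its part in the shares was not tested.

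Another pair of motifs was looked for on both strands in the same windows. TAATCC, the core known for fly and vertebrate homeodomains of the Goosecoid type, to which CEH-45 belongs, was in none of the 6 thresholded windows and in 2 of the 60 highest candidates (3.33%), against 3.65% of all candidates. Of all thresholded peaks 2.55% held it. The GC box GGGCGG was also in none of the 6, against 8.03% of all thresholded peaks, and in 2 of the 60, against 2.46% of all candidates. In the promoters, TAATCC stood in 5 of 65 (7.69%), against 9.37% of all protein-coding genes, and the GC box in 3 of 65 (4.62%), against 7.83%.

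Other genes of the chaperone network were counted in the same way. The list of 40 held regulators such as hsf-1, xbp-1, atfs-1 and skn-1, co-chaperones such as sti-1, bag-1 and cdc-37, and enzymes and proteases of the endoplasmic reticulum and mitochondria. None of the 40 had a peak in any of the 4 thresholded sets, which is near the background, since the larger set reached 2.15% of all protein-coding genes. Their median highest signal was 35.6, close to the 34.6 of the 65 genes, and the range was 8.89 to 64.0. uri-1, a prefoldin-like gene, had 64.0 (IDR 0.0206), bag-1, a nucleotide exchange factor for Hsp70, had 60.2 (IDR 0.0285) and ahsa-1, an activator of Hsp90, had 55.9 (IDR 0.0275). hsf-1 itself, the heat shock transcription factor, had 21.99, which is at or above 28.4% of all protein-coding genes.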

How the data were processed

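The authors deposited peak lists on build ce11: a ranked list and a thresholded set in a larger and a conservative version, and 1 such pair per replicate. Per the notes deposited with them, the thresholded sets derive from the replicates' alignments and further files that the notes do not describe; which aligner and peak caller were used is not given in the sources used here. The labels name possible controls, which were not used here. Signal values are as the authors deposited them, and no source states how they relate to depth. The deposited ranked lists give the −log10 of the global IDR. The larger thresholded set held 548 of 108916 ranked peaks, the conservative 463 of 71732, replicate 1 258 of 41437 and replicate 2 227 of 43328. A further 124 peaks of the larger ranked list had an IDR of at most 0.01 outside its thresholded set, 0 of them at chaperone genes. Per-sample columns left unmapped numbered 0.

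Gene models came from Ensembl release 115 and product names and sequence from RefSeq, both of WBcel235, which has ce11 coordinates; 0 peaks ran past a chromosome end. No test was run: the members and lists were chosen with earlier results of these data known, and counts and medians stand beside those over all protein-coding genes. Classes overlap. Stress-induced genes were hsp-16.x, hsp-70 and hsp-4; mitochondrial ones hsp-6, hsp-60, hsp-75, dnj-10, dnj-15 and dnj-21. Named were the genes with a peak of any thresholded set, the 2 highest and the lowest of each class, the 5 highest with no thresholded peak, and neighbours sharing a named peak; any further member was named with its value in view. Repeated sequence was the share of 31-base words found at several places in the assembly. Assignment was tested on simulated data. Python 3.11.15, numpy 2.4.6, pandas 2.3.3 and matplotlib 3.10.9 were used, with 11 alternatives planned and 1 added.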

Additional observations from a re-analysis of the deposited data

How the results depend on the processing

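The 5 genes with a thresholded peak were the same with every ranked peak at an IDR of at most 0.01, a window of 1000 bp upstream to 500 bp downstream, 1 bp of overlap in place of the summit, the outermost start only, and without peaks near small RNA genes. The conservative set gave 5 genes with hsp-6 in place of dnj-14, and so 2 mitochondrial genes. An IDR of at most 0.001 left 1 gene, 1 site and 1 J-domain gene, dnj-28, and 0 mitochondrial genes, and 0.05 gave 12 genes. Leaving out each replicate in turn gave 1 to 3 genes and sites, 1 to 3 J-domain genes, 0 mitochondrial genes and medians of 16.9 to 17.8, on the scale of a single replicate's list. From 500 bp upstream to 100 bp downstream, hsp-60 was lost (0 mitochondrial genes), and the median signal was 23.2. Counting a peak for the nearest start only left 3 genes and 3 sites, dnj-28, dnj-29 and dnj-14, with 0 mitochondrial genes and a median of 25.1. The median was 31.3 with 1000 bp upstream, 35.5 by overlap and 33.4 with the outermost start. Of the 28 named genes' signals, 22 moved without replicate 1, 25 without replicate 2, 8 in the narrowest window, 8 by nearest start, and 0 to 4 under each other alternative. The stress-induced, chaperonin and prefoldin counts stayed at 0 in every alternative planned. Without replicate 1 only dnj-28 passed, and without replicate 2 hsp-60 and dnj-14 were lost, so the list depends on both. No paired analysis was possible because there is 1 group. Depth is unknown and limits what an absent peak means.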

Other observations

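The hsp-16.1 and hsp-16.48 genes lie on chromosome V in 2 near-identical copies. All 4 of their promoters consisted entirely of 31-base words found at several places in the assembly (100%), and 70.5% to 82.0% of their searched windows did. Around the summits of their highest candidates the share was lower, 19.3% at WBGene00002020 and 0% at the other 3 genes, so those candidates lay mostly in sequence found once. The treatment of reads that match several places is not given in the sources used here. The hsp-16.2 and hsp-16.41 promoters, which hold the same elements, were 1.11% repeated. At dnj-28, the gene of highest signal, 23.4% of the sequence around the summit was repeated sequence, against 0% at hsp-60.

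The genes dnj-26, dnj-10 and pfd-5 had no candidate summit in their windows in the larger list. The nearest summit lay 518 bp from a start of dnj-26, 580 bp from dnj-10 and 3766 bp from pfd-5, and the repeated share of their windows was 29.1%, 35.0% and 0%.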
